A study of Homo sapiens with 3 samples.

Results

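Divergent transcripts are noncoding RNAs that start close to the start of a coding gene and are read from the other strand, away from that gene. Their symbols end in -DT, and the part before -DT names the coding gene, called the partner here. Among the 54675 probe sets of the Affymetrix human array, 41097 carried exactly 1 gene symbol in the platform annotation, and 278 of those had a symbol ending in -DT. These 278 probe sets named 197 divergent transcripts, of which 146 had 1 probe set and 51 had several. GARS1-DT had the most, with 8. RefSeq listed all 197 partners as protein-coding genes, and 182 of the partners had a probe set under their own symbol alone.

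The RNA came from MDA-MB-231 cells, an established line from a human breast cancer that is widely used as a model of disease without estrogen receptor alpha and progesterone receptor. The 3 groups were cells given 1 µM tamoxifen, an estrogen receptor ligand used against breast cancer, cells given 1 µM estradiol, the main natural estrogen, and cells given the vehicle, 0.1% ethanol. In each group the treatment lasted 3 h and followed 4 h in medium with 10% charcoal-stripped serum, from which steroid hormones have been removed. The title states tamoxifen's early effect on gene expression as the question. Each group was 1 culture of 1 line and 1 array, so no value below has an error, no difference was tested, and "higher" and "lower" compare single arrays.

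Many mammalian promoters start transcription in both directions. On the coding side the polymerase goes on into the gene, while on the other side it usually stops early, through the Integrator complex and early poly(A) sites, and the nuclear exosome degrades much of the RNA. The U1 small nuclear ribonucleoprotein (snRNP) masks early poly(A) sites on the coding side and so lets the longer transcript form. Divergent RNAs that escape decay can be spliced, polyadenylated and listed as genes, and those are the ones with -DT symbols.

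Members were chosen by the -DT symbol, which is given to genes with this arrangement. The starts below therefore describe the arrangement and do not test it. Both starts were listed in the RefSeq promoter table (GRCh38.p14) for 146 of the 197 pairs, and the nearest starts of a pair were used. This choice makes each distance as short as the listed starts allow. All 146 pairs lay on opposite strands. The divergent transcript started upstream of its partner in 142 pairs and downstream in 4. The median distance between the starts was 177 bases, with quartiles of 102 and 323 bases and extremes of 21 and 172748 bases. In 134 pairs (91.8%) the starts lay within 1000 bases of each other, in 97 within 250 bases, and in 7 they were over 10000 bases apart. The plot of start offsets shows how tightly the starts clustered on the upstream side. Gene spans overlapped in 24 of the 197 pairs.

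**Figure D1:**
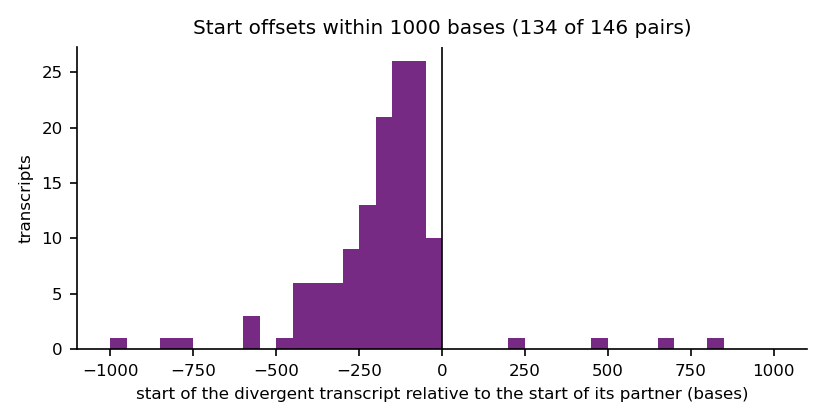
Number of divergent transcripts (y axis) by the distance in bases from the start of the partner, which is at 0, to the start of the divergent transcript (x axis, negative values upstream of the partner). The 134 pairs within 1000 bases are drawn, and most lie upstream within 250 bases.

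The 250 bases before the partner's start are printed for 6 pairs, because in 5 of them the divergent transcript starts inside that window. They are USP27X, the pair past 1.5-fold together, and the 5 in which the smaller of the 2 members' differences was largest. In the windows of USP27X, CHKB, GMDS, ATP6AP1 and DOCK9 the capitals mark the bases between the starts of the divergent transcript and of the partner. SLC12A2-DT starts 591 bases upstream of SLC12A2, outside its window, and there the capitals mark the GC box, GGGCGG, on either strand. All are RefSeq sequences of GRCh38.p14, written along the partner's strand.
USP27X (chrX:49879234-49879483, plus strand, 69.2% G or C): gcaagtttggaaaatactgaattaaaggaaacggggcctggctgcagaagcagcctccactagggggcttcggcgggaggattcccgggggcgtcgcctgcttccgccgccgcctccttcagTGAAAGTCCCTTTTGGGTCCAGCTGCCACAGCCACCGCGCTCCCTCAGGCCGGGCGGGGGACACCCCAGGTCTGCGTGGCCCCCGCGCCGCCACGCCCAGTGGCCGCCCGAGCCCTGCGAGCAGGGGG
SLC12A2 (chr5:128083516-128083765, plus strand, 79.6% G or C): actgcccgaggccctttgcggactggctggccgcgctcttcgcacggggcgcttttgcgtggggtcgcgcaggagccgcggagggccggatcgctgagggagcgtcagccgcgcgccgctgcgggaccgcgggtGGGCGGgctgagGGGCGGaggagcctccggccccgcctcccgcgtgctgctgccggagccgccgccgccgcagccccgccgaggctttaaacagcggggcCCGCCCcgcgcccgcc
CHKB (chr22:50582850-50583099, minus strand, 70.0% G or C): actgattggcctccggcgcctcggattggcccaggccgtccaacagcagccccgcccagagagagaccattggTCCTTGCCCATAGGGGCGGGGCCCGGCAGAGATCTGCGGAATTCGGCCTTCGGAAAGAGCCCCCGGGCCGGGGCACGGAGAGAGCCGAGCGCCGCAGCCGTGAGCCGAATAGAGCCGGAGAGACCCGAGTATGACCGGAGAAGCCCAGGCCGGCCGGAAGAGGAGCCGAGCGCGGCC
GMDS (chr6:2245606-2245855, minus strand, 80.0% G or C): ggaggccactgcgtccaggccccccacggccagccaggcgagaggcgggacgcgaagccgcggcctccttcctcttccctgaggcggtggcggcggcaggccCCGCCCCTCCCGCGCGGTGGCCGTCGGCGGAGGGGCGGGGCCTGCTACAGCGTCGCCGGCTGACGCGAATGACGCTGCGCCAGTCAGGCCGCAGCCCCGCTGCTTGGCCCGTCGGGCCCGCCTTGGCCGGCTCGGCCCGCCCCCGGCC
ATP6AP1 (chrX:154428427-154428676, plus strand, 67.6% G or C): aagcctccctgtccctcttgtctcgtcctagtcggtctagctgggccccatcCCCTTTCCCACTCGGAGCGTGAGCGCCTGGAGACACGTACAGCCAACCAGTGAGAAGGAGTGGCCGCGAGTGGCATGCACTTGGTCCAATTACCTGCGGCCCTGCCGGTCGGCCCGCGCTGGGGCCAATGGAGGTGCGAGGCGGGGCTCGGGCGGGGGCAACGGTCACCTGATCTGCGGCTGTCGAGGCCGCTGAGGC
DOCK9 (chr13:99086695-99086944, minus strand, 82.8% G or C): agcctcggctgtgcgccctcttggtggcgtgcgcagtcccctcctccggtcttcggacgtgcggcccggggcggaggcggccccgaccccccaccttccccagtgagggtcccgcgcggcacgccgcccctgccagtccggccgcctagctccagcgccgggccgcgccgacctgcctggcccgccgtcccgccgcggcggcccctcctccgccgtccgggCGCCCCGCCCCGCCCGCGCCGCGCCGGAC

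These windows hold the GC-rich sequence of CpG islands. The starts lay 128 bases apart at USP27X, 177 at CHKB, 148 at GMDS, 198 at ATP6AP1 and 29 at DOCK9. A GC box was present in all 6 windows, and a CCAAT box, CCAAT, in those of CHKB and ATP6AP1. Over all 146 partners with both starts listed, the 250 bases before the start had a median G or C content of 68.6% and a median CpG ratio (observed over expected from base composition) of 0.889. The same window before the first listed start of 15843 protein-coding genes had medians of 62.4% and 0.737. For the partners the start nearest to that of the divergent transcript was used instead. The part of this different choice in these contrasts, and in the motif shares below, was not tested.

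Short motifs were searched on both strands of the same windows. The GC box was found in 110 of the 146 partner windows (75.3%), against 56.0% of coding genes and 42.6% of all 35116 windows in the table. The TATA box, TATAAA, was found in 9 (6.16%), against 9.23% of coding genes and 10.7% of all windows. The CCAAT box was in 54 (37.0%), against 34.5% and 32.0% in those same sets. The cyclic AMP response element, TGACGTCA, was in 9 (6.16%), against 2.32% and 1.65%. An ETS motif, CCGGAAGT, was in 12 (8.22%), against 5.09% and 3.42%. None of these motifs contains another, although matches can share a few bases, and a match describes letters, not binding.

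The deposited values are on a log scale, taken to be log2, and each probe set is centred on a baseline that is not stated. A value is therefore no level, and levels of different genes cannot be compared from the values. Only a coarse brightness band, explained next, was read for each probe set. Differences between columns of 1 probe set are used instead, and 1.5-fold (0.585 on the log2 scale) is the size called past the rule. Over all probe sets the column medians were -0.02 with tamoxifen, -0.02 with estradiol and -0.04 with vehicle. The SDs over probe sets were 0.46 with tamoxifen, 0.47 with estradiol and 0.20 with vehicle, so the vehicle column was narrower, and doubling its values was tried as an alternative. The poly(A) spike-in RNAs (21 probe sets above the floor explained next), added to the RNA before labelling, had medians of 1.05 for estradiol minus vehicle, 0.89 for tamoxifen minus vehicle and -0.16 for tamoxifen minus estradiol. The hybridisation spikes (18 probe sets) had medians of 0.18, 0.10 and -0.12 in the same order. The part of these offsets in the results was not tested. All 8 markers of the basal, mesenchymal type of this line, VIM and CD44 among them, lay above the floor. Of the luminal markers ESR1, the estrogen receptor alpha gene, GATA3 and KRT19 also did (3 of 5), while PGR and FOXA1 did not. So did 2 of 5 leukocyte markers, PTPRC and CD79A, and 3 of 5 fibroblast or endothelial markers, COL1A1, PECAM1 and VWF. A brightness band does not show that a gene is expressed.

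Probe sets of divergent transcripts were dim on this array. A band describes the signal of a probe set, and how far it follows the amount of RNA was not tested. A brightness band was read from the finest binary step of the printed values, since a stored level of 8 or more has coarser steps than one of 4 to 8. The floor was the 4 to 8 band (log2 level). Above it lay 72 of the 278 divergent probe sets (25.9%), which named 57 transcripts, and 206 lay below. Of the 478 probe sets of the coding partners 63.8% lay above it, and of all 54675 probe sets 45.5%. Other noncoding classes were nearer to the divergent transcripts, with 23.5% of 1083 antisense probe sets (symbols ending in -AS and a number) and 16.3% of 1083 LINC probe sets above the floor. As a check of the bands, 108 of 122 ribosomal protein probe sets (88.5%) and 14 of 107 olfactory receptor probe sets (13.1%) lay above it.

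The brightest band, at 8 or more, held 13 divergent probe sets (4.68%) and 20.9% of partner probe sets. They belonged to ATP6AP1-DT, OSER1-DT, ZNF426-DT, CEBPA-DT, DPH5-DT, NCK1-DT, GMDS-DT, MOCS2-DT, CFAP100-DT, FAM86B2-DT, MAP4K3-DT and RBM33-DT, with OSER1-DT holding 2 of them. The band under 2 held 30.9% of divergent and 12.1% of partner probe sets. The chart of brightness bands shows the divergent transcripts close to the antisense class and the partners brighter than the array as a whole.

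**Figure D2:**
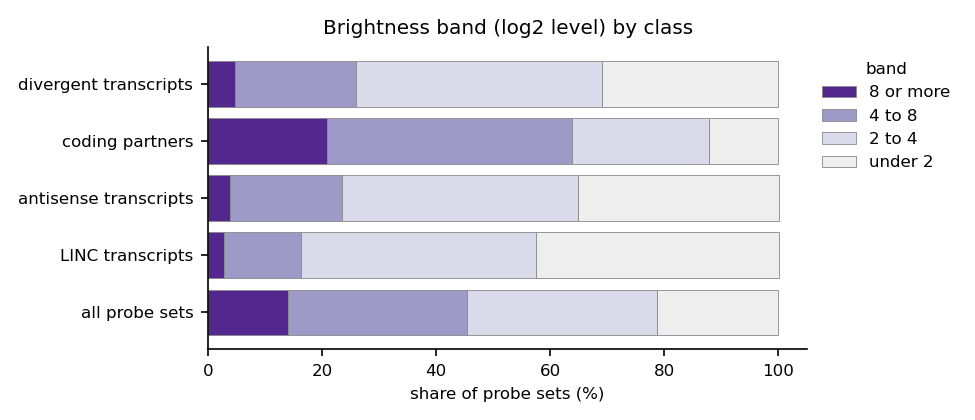
Share of probe sets (x axis, percent) in each brightness band (log2 level, darker shades brighter) for divergent transcripts, their coding partners, antisense transcripts, LINC transcripts and all probe sets. The bands of 4 to 8 and 8 or more hold 25.9% of divergent probe sets and 63.8% of partner probe sets.

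Estradiol compared with vehicle gave few divergent transcripts past 1.5-fold. Of the 72 probe sets above the floor, 3 were higher with estradiol (4.17%), where 6.7% of all probe sets above the floor were, and 4 were lower (5.56%), where 5.97% of all were. The median difference was -0.05, against 0.01 over all probe sets above the floor, with 31 above 0 and 41 below. The 20944 probe sets above the floor with exactly 1 symbol, as the members have, had 7.05% higher and 4.69% lower. The divergent lower share thus lay between these 2 backgrounds. Of all 278 divergent probe sets, the dim ones included, 10 were higher (3.6%, against 5.36% of all 54675) and 11 lower (3.96%, against 5.51%). Among 54 probe sets above the floor of types that do not cross-react, 2 were lower (3.7%, against 6.21% of all such probe sets). In a culture measured in bulk, fewer cells of a kind and less RNA per cell cannot be told apart, here or below.

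USP27X-DT had the largest difference of any divergent transcript above the floor. Its partner USP27X encodes a deubiquitinase, an enzyme that removes ubiquitin from proteins. USP27X-DT stood at -0.04 with tamoxifen, 1.32 with estradiol and -0.0012 with vehicle, so the estradiol array alone was high and the other 2 arrays were close together. The difference from vehicle was 1.32, a 2.49-fold higher value. USP27X itself stood at 1.10 with tamoxifen, 0.91 with estradiol and 0.06 with vehicle, higher with both ligands, by 0.86 with estradiol. This was the only one of 49 pairs with both members above the floor in which both passed 1.5-fold in the same direction, and their promoter is the first sequence above.

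TOX-DT and ANKRD42-DT were the other higher transcripts. TOX encodes a transcription factor of the high-mobility-group box family. TOX-DT stood at 0.24 with tamoxifen, 0.56 with estradiol and -0.13 with vehicle, highest with estradiol, and differed by 0.69 from vehicle, while TOX itself differed by -0.08. ANKRD42, an ankyrin repeat protein gene, had a transcript at -0.08 with tamoxifen, 0.39 with estradiol and -0.28 with vehicle in probe set 243151_at, a difference of 0.67. The other ANKRD42-DT probe set, 220572_at, lay below the floor and differed by -0.02. ANKRD42 itself lay below the floor and differed by 0.63.

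The 4 lower probe sets belonged to SLC12A2-DT, FLVCR1-DT and MAN1B1-DT. SLC12A2 encodes the sodium, potassium and chloride cotransporter NKCC1. SLC12A2-DT probe set 235628_x_at stood at -1.32 with tamoxifen, -1.35 with estradiol and -0.41 with vehicle and probe set 228686_at at -0.57 with tamoxifen, -0.62 with estradiol and -0.02 with vehicle, lower with both ligands than with vehicle. The estradiol differences were -0.94 and -0.59. Its probe set 230685_at stood at -0.28 with tamoxifen, -0.08 with estradiol and 0.11 with vehicle and differed by -0.18. FLVCR1, a membrane transporter of choline and heme, had its transcript at -1.24 with tamoxifen, -1.11 with estradiol and -0.29 with vehicle, and the difference was -0.82. MAN1B1 is a mannosidase of the endoplasmic reticulum that trims N-glycans. MAN1B1-DT stood at -1.42 with tamoxifen, -1.17 with estradiol and -0.48 with vehicle, a difference of -0.69. With the vehicle values doubled, all 4 lay inside 1.5-fold: -0.54 and -0.57 for SLC12A2-DT, -0.53 for FLVCR1-DT and -0.21 for MAN1B1-DT. The same setting put 5 probe sets higher (6.94%, against 4.84% of all), adding ATP6AP1-DT at 0.63 and BAIAP2-DT probe set 1566557_at at 0.62 to the 3 above. It put 2 lower (2.78%, against 4.48% of all), GARS1-DT probe set 1558459_s_at at -0.61 and CRIM1-DT probe set 236656_s_at at -0.59.

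Tamoxifen compared with vehicle gave more lower than higher divergent transcripts. Lower by 1.5-fold or more were 11 of the 72 probe sets (15.3%), where 7.26% of all probe sets above the floor were, and higher were 2 (2.78%), where 7.74% of all were. The median was -0.06, against 0.0042 over all probe sets, with 27 above 0 and 45 below. Probe sets above the floor with exactly 1 symbol had 8.22% higher and 5.98% lower. Among 54 probe sets of types that do not cross-react the lower count was 7 (13.0%), against 7.59% of all such probe sets. With the vehicle values doubled it was 7 of 72 (9.72%), against 6.22%, and the higher count 3 (4.17%), against 8.18%, BAIAP2-DT probe set 1566557_at being added at 0.81. Without the floor it was 20 of 278 (7.19%), against 6.02%, which is near the background, and the higher count 6 (2.16%), against 5.42%.

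The coding partners leaned the other way on the same arrays. Of their 305 probe sets above the floor 40 were higher with tamoxifen than with vehicle (13.1%) and 16 lower (5.25%), with a median of 0.11. Of all probe sets above the floor 7.74% were higher and 7.26% lower in that comparison. The antisense transcripts resembled the divergent ones, with 9 higher (3.54%) and 25 lower (9.84%) of 254 and a median of -0.08. LINC transcripts had 5 higher (2.82%) and 11 lower (6.21%) of 177 and a median of -0.01. For estradiol minus vehicle the partners had 29 higher (9.51%, against 6.7% of all) and 16 lower (5.25%, against 5.97%), with a median of 0.07. These comparisons share the vehicle array, and no class was tested against another. The partners, antisense and LINC transcripts were not counted with the vehicle values doubled.

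**Figure D3:**
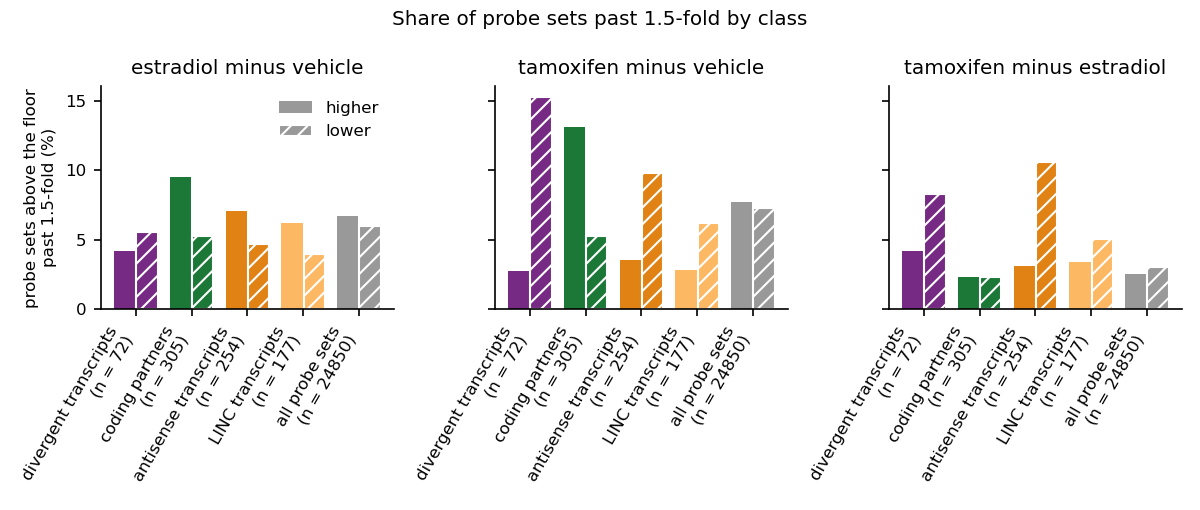
Share of probe sets above the brightness floor (y axis, percent) that were higher (plain bars) or lower (hatched bars) by 1.5-fold or more in each comparison, for divergent transcripts, coding partners, antisense transcripts, LINC transcripts and all probe sets, with n under each. For tamoxifen minus vehicle the divergent bars are 2.78% higher and 15.3% lower, and the partner bars 13.1% higher and 5.25% lower.

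C2orf74-DT had the lowest tamoxifen difference. Its probe set 227940_at stood at -1.19 with tamoxifen, -0.24 with estradiol and -0.15 with vehicle, so that only the tamoxifen array was low, and the difference from vehicle was -1.04, a 2.05-fold lower value. Its other probe set, 227941_at, ran the same way with -0.54 with tamoxifen, -0.35 with estradiol and -0.23 with vehicle, a difference of -0.31. C2orf74 had no probe set under its symbol alone. FLVCR1-DT, whose values are given above, was -0.95 with tamoxifen, and FLVCR1 itself 0.42. MAN1B1-DT was -0.94, and MAN1B1 -0.41.

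Of the other partners, DPY19L3 is an enzyme that attaches mannose to tryptophan in secreted proteins, and GMDS makes the GDP-fucose used for fucosylation. DPY19L3-DT stood at -0.90 with tamoxifen, -0.39 with estradiol and 0.01 with vehicle, lowest with tamoxifen, and differed from vehicle by -0.91. DPY19L3 itself differed by -0.13. GMDS-DT had 2 probe sets above the floor that disagreed. Probe set 233063_s_at stood at -0.75 with tamoxifen, -0.05 with estradiol and 0.08 with vehicle, low with tamoxifen, and differed from vehicle by -0.83. Probe set 232335_at stood at 0.38 with tamoxifen, -0.62 with estradiol and -0.24 with vehicle, high with tamoxifen, and differed by 0.62, making it 1 of the 2 higher probe sets. GMDS differed by -0.54, the direction of the brighter probe set, 233063_s_at.

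CRIM1-DT was low in both of its probe sets. CRIM1 is a transmembrane protein that binds bone morphogenetic proteins. Probe set 236656_s_at stood at -0.77 with tamoxifen, -0.33 with estradiol and 0.13 with vehicle and probe set 236657_at at -0.61 with tamoxifen, 0.04 with estradiol and 0.06 with vehicle. Their tamoxifen differences from vehicle were -0.91 and -0.67, both lower, while CRIM1 differed by 0.08. SLC12A2-DT was lower by the rule in 235628_x_at only, at -0.91, with -0.55 and -0.39 in its other probe sets above the floor.

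FAM86B2-DT, CNN3-DT and CHKB-DT complete the 11. FAM86B2 had no probe set under its symbol alone. FAM86B2-DT probe set 238716_at stood at -0.85 with tamoxifen, -0.45 with estradiol and -0.02 with vehicle, a tamoxifen difference of -0.83, and probe set 227917_at at -0.26 with tamoxifen, 0.06 with estradiol and 0.01 with vehicle, a difference of -0.28. CNN3 is a calponin that binds actin. CNN3-DT probe set 235691_at stood at -0.81 with tamoxifen, 0.19 with estradiol and -0.13 with vehicle, low with tamoxifen only, a difference of -0.68. Its probe set 230433_at stood at 0.01 with tamoxifen, -0.02 with estradiol and 0.03 with vehicle, flat over the 3 arrays. CHKB is a choline kinase of phosphatidylcholine synthesis. CHKB-DT stood at -0.70 with tamoxifen, -0.14 with estradiol and -0.07 with vehicle, a difference of -0.64, and CHKB at -0.70 with tamoxifen, -0.69 with estradiol and -0.12 with vehicle, a difference of -0.58, just inside the rule. Of the 11, doubling the vehicle values left MAN1B1-DT (-0.46), SLC12A2-DT (-0.51), CNN3-DT (-0.55) and CHKB-DT (-0.57) inside 1.5-fold.

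VSTM2B-DT was the second higher probe set with tamoxifen. It stood at 0.50 with tamoxifen, -0.32 with estradiol and -0.11 with vehicle, highest with tamoxifen, and differed from vehicle by 0.61. VSTM2B had no probe set under its symbol alone. The dot plot of the 19 probe sets past the rule in any comparison sets these values side by side. The share of all probe sets past the rule in any comparison was not counted, and only the shares per comparison have a background.

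**Figure D4:**
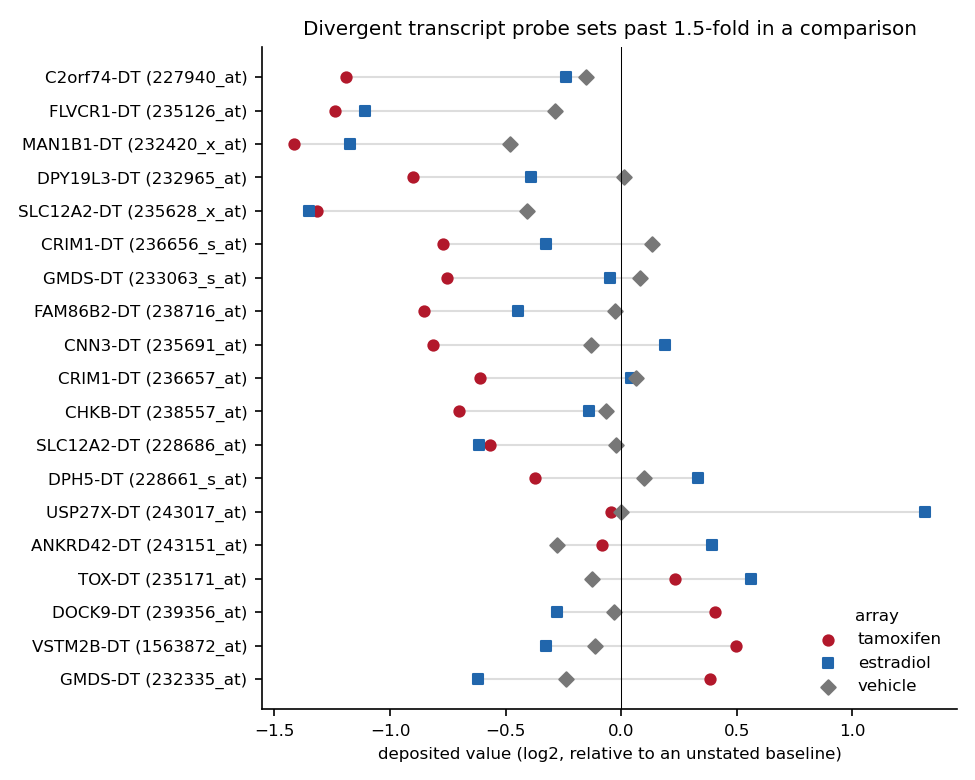
Deposited values (x axis, log2 relative to an unstated baseline) of the 19 divergent transcript probe sets above the floor that passed 1.5-fold in any comparison (1 row each), with tamoxifen as red circles, estradiol as blue squares and vehicle as grey diamonds, 1 array each. The upper rows are low with tamoxifen, and USP27X-DT is high with estradiol only.

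Tamoxifen compared with estradiol gave 6 lower (8.33%) and 3 higher (4.17%) of the 72 probe sets, where 3.02% and 2.55% of all probe sets above the floor were. The median was -0.14, against -0.01 over all probe sets, with 27 above 0 and 45 below. Probe sets above the floor with exactly 1 symbol had 2.4% higher and 2.75% lower. Without the floor 18 of 278 were lower (6.47%, against 3.98% of all) and 8 higher (2.88%, against 3.69%). This comparison does not use the vehicle array. The partners had 7 higher and 7 lower (2.3% each) of 305 and a median of 0.03. The antisense transcripts had 8 higher (3.15%) and 27 lower (10.6%) and a median of -0.11, and the LINC transcripts 6 higher (3.39%) and 9 lower (5.08%) and a median of -0.10.

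USP27X-DT was again the largest, at -1.36, with USP27X at 0.19. The next were CNN3-DT probe set 235691_at at -1.01 and C2orf74-DT probe set 227940_at at -0.95, each low with tamoxifen beside both other arrays. DPH5-DT, whose partner makes diphthamide, a modified histidine of elongation factor EEF2, stood at -0.37 with tamoxifen, 0.33 with estradiol and 0.10 with vehicle. It was highest with estradiol and lowest with tamoxifen, a difference of -0.71 between them, and DPH5 itself differed by 0.08. GMDS-DT probe set 233063_s_at was -0.70 and CRIM1-DT probe set 236657_at -0.65.

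The 3 higher probe sets were GMDS-DT 232335_at at 1.001, VSTM2B-DT at 0.82 and DOCK9-DT. DOCK9 is an exchange factor that activates the GTPase CDC42. DOCK9-DT stood at 0.41 with tamoxifen, -0.28 with estradiol and -0.03 with vehicle, high with tamoxifen and low with estradiol, a difference of 0.69. DOCK9 itself stood at 1.14 with tamoxifen, 1.02 with estradiol and 0.27 with vehicle, high with both ligands.

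Divergent transcripts and their partners had the same sign in about as many pairs as not. Of 182 pairs with a probe set on each side, 161 partners (88.5%) lay above the floor, and 49 pairs had both members above it. Where a gene had several probe sets, those in its brightest band were averaged. Both members had the same sign in 23 of 49 pairs (46.9%) for estradiol minus vehicle, in 21 (42.9%) for tamoxifen minus vehicle and in 26 (53.1%) for tamoxifen minus estradiol. Across these 49 pairs, which share the same 3 arrays, Pearson's r was 0.22, 0.17 and -0.02 in that order, and Spearman's rho 0.04, 0.16 and 0.0004. The scatter plots of the pairs show no common line.

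**Figure D5:**
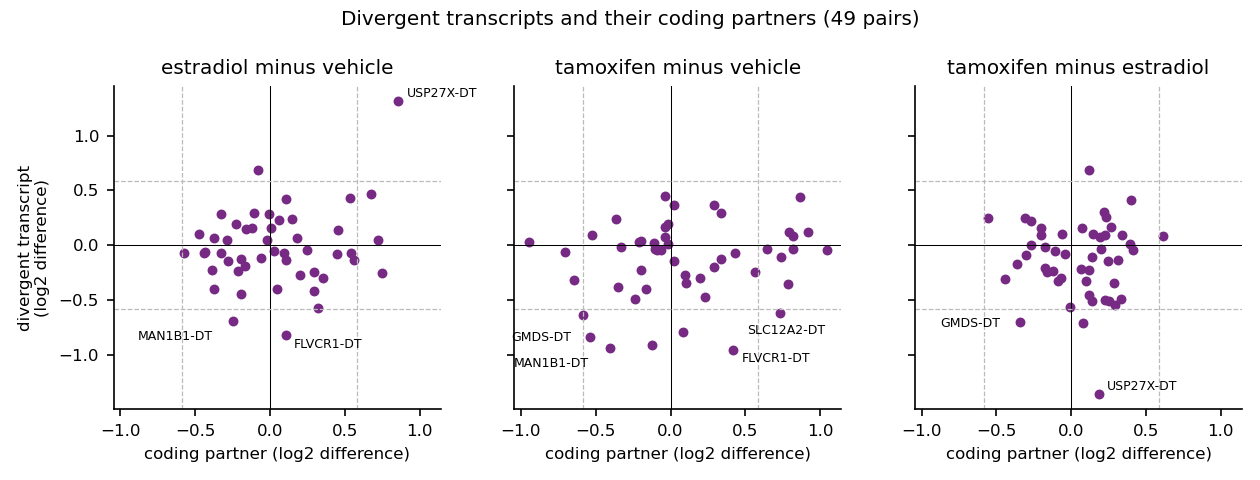
Difference of the divergent transcript (y axis, log2) against that of its coding partner (x axis, log2) in each comparison, for 49 pairs above the floor (1 point each), with dashed lines at 1.5-fold. USP27X-DT stands alone at the upper right for estradiol minus vehicle, at 1.32 beside 0.86 for USP27X.

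Pairs were also counted by which members passed 1.5-fold. How often 2 unrelated genes pass together was not counted, so these pair counts cannot be read as few or many. For tamoxifen minus vehicle 1 pair passed in opposite directions and none in the same direction. In 6 the divergent transcript passed alone, in 12 the partner alone and in 30 neither. Of the 49 partners 10 were higher and 3 lower, where 6.99% and 4.42% of the 12130 genes above the floor were. The opposite pair was SLC12A2-DT, -0.62 over its 3 probe sets above the floor, and SLC12A2 at 0.77 with tamoxifen, 0.36 with estradiol and 0.04 with vehicle, a difference of 0.73. With the vehicle values doubled SLC12A2-DT was -0.51 and lay inside the rule. FLVCR1-DT, at -0.95 beside 0.42 for FLVCR1 as deposited, became the opposite pair under that setting among pairs with both members above the floor, at -0.67 and 0.64, so which pair is opposite depends on the scale of the vehicle values. CNN3-DT was -0.35 over its 2 probe sets, inside the rule, and CNN3 stood at 0.97 with tamoxifen, 0.64 with estradiol and 0.18 with vehicle, a difference of 0.78. For estradiol minus vehicle 1 pair passed together, the transcript alone passed in 3, the partner alone in 3 and neither in 42. There 4 partners were higher and 0 lower, where 5.95% and 2.78% of all genes above the floor were. For tamoxifen minus estradiol the transcript alone passed in 4, the partner alone in 1 and neither in 44. Here 1 partner was higher and 0 lower, where 1.61% and 2.26% of all genes above the floor were.

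Pairs with close starts and pairs with distant starts were counted apart. Of 29 pairs above the floor whose starts lay within 250 bases, 17 had the same sign for estradiol minus vehicle, 16 for tamoxifen minus vehicle and 16 for tamoxifen minus estradiol. Of 10 pairs with starts over 250 bases apart, 2, 2 and 5 did. Of 164 pairs above the floor of an antisense transcript and the gene it is named for, 94 (57.3%) had the same sign for estradiol minus vehicle, 87 (53.0%) for tamoxifen minus vehicle and 63 (38.4%) for tamoxifen minus estradiol, with Pearson's r of 0.14, 0.14 and -0.12.

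The other 53 divergent probe sets above the floor lay inside 1.5-fold in all 3 comparisons, 4 of them further probe sets of C2orf74-DT, FAM86B2-DT, SLC12A2-DT and CNN3-DT given above. The rest are described by what their partners do. Partner values are given for some of them only, so those printed do not show how the partners ran as a group. Over the 49 pairs with both members above the floor, the partners' median for tamoxifen minus vehicle was -0.01. Among transcripts beside transport genes, ATP6AP1-DT, whose partner is an accessory subunit of the proton pump that acidifies lysosomes, was in the brightest band. It stood at -0.19 with tamoxifen, 0.31 with estradiol and -0.16 with vehicle, high with estradiol, and its window is printed above. ATP6AP1 stood at 1.12 with tamoxifen, 0.97 with estradiol and 0.30 with vehicle, high with both ligands. ATP13A3 is a pump for polyamines, and ATP13A3-DT stood at 0.01 with tamoxifen, -0.20 with estradiol and -0.12 with vehicle in probe set 1566760_at. The other ATP13A3-DT probe set, 1566761_a_at, stood at 0.01 with tamoxifen, 0.04 with estradiol and -0.18 with vehicle. SLC20A1 imports phosphate, and SLC20A1-DT stood at -0.14 with tamoxifen, -0.39 with estradiol and -0.15 with vehicle, lowest with estradiol.

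Next came transcripts beside genes of adhesion and the actin cytoskeleton. BAIAP2, an adaptor between membranes and actin, had a transcript with 4 probe sets above the floor. Probe set 1566557_at stood at 0.35 with tamoxifen, 0.17 with estradiol and -0.23 with vehicle, high with both ligands, and at 0.58 for tamoxifen minus vehicle it lay just inside the rule. Probe set 1566558_x_at stood at 0.17 with tamoxifen, -0.04 with estradiol and -0.09 with vehicle. In both of these the tamoxifen array was the highest. Probe set 1558147_a_at stood at -0.10 with tamoxifen, 0.09 with estradiol and -0.09 with vehicle and probe set 1558148_x_at at 0.11 with tamoxifen, -0.07 with estradiol and -0.04 with vehicle, both close to 0 on all 3 arrays. ITGB1-DT, beside the integrin beta 1 gene, stood at -0.10 with tamoxifen, -0.06 with estradiol and 0.01 with vehicle, nearly flat, although ITGB1 differed by 0.74 between tamoxifen and vehicle. NCK1 encodes an adaptor that links receptors to actin. NCK1-DT stood at -0.15 with tamoxifen, -0.22 with estradiol and -0.27 with vehicle, while NCK1 differed by 0.92 for tamoxifen minus vehicle.

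The transcripts beside signalling genes ranged from flat to low with tamoxifen. IKBKB is a kinase that activates NF-kappa-B, and IKBKB-DT stood at -0.31 with tamoxifen, 0.00042 with estradiol and 0.07 with vehicle, lowest with tamoxifen, with IKBKB itself at -0.40 with tamoxifen, 0.05 with estradiol and -0.05 with vehicle, also lowest with tamoxifen. PPP3CA is the catalytic subunit of the phosphatase calcineurin, and PPP3CA-DT stood at -0.05 with tamoxifen, -0.06 with estradiol and -0.01 with vehicle. PPP3CA differed by 0.65 for tamoxifen minus vehicle. IL10RB is a shared subunit of cytokine receptors, and IL10RB-DT stood at 0.15 with tamoxifen, -0.07 with estradiol and 0.20 with vehicle. MAP4K3-DT, beside a kinase gene with no probe set under its symbol alone, stood at -0.20 with tamoxifen, 0.32 with estradiol and 0.06 with vehicle in probe set 242313_at and at -0.33 with tamoxifen, 0.14 with estradiol and -0.06 with vehicle in probe set 242835_s_at. Both were lowest with tamoxifen and highest with estradiol.

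Transcription factor and cofactor genes followed. CEBPA is a factor of adipocyte and myeloid differentiation, and CEBPA-DT, in the brightest band, stood at -0.0014 with tamoxifen, 0.0014 with estradiol and -0.14 with vehicle. KLF9 is a zinc finger factor that responds to glucocorticoids, and KLF9-DT stood at 0.11 with tamoxifen, -0.30 with estradiol and -0.19 with vehicle, highest with tamoxifen, as was KLF9 at 0.40 with tamoxifen, 0.0026 with estradiol and 0.06 with vehicle. CTBP1 is a corepressor, and CTBP1-DT stood at 0.32 with tamoxifen, 0.17 with estradiol and -0.13 with vehicle, higher with both ligands than with vehicle. PRDM16, a factor of brown fat, had a transcript at -0.04 with tamoxifen, -0.27 with estradiol and 0.02 with vehicle, lowest with estradiol. ZNF426-DT, in the brightest band beside a zinc finger gene, stood at 0.10 with tamoxifen, 0.33 with estradiol and -0.09 with vehicle, highest with estradiol.

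Transcripts beside genes of RNA and translation were lower with both ligands in some cases. EIF3J is a subunit of an initiation factor, and EIF3J-DT stood at -0.42 with tamoxifen, -0.52 with estradiol and -0.12 with vehicle, low with both. GARS1, the glycyl-tRNA synthetase, had GARS1-DT at -0.33 with tamoxifen, -0.39 with estradiol and 0.11 with vehicle in probe set 1558459_s_at, low with both ligands. Its probe set 233732_at stood at -0.09 with tamoxifen, 0.15 with estradiol and -0.07 with vehicle and did not share that pattern. YTHDF3, a reader of N6-methyladenosine, had a transcript at 0.10 with tamoxifen, 0.01 with estradiol and 0.08 with vehicle. RBM33-DT, in the brightest band beside an RNA-binding protein gene, stood at 0.0016 with tamoxifen, 0.22 with estradiol and 0.27 with vehicle. RNASEH1 cuts RNA in RNA and DNA hybrids, and RNASEH1-DT stood at -0.60 with tamoxifen, -0.30 with estradiol and -0.11 with vehicle, lowest with tamoxifen. NUP50, of the nuclear pore, had a transcript at -0.53 with tamoxifen, -0.08 with estradiol and -0.13 with vehicle, also lowest with tamoxifen.

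Genome maintenance and mitosis had 3 such transcripts. MRNIP takes part in repair of DNA breaks, and MRNIP-DT stood at -0.39 with tamoxifen, 0.11 with estradiol and -0.04 with vehicle, low with tamoxifen only. PAXIP1 also acts in the DNA damage response, and PAXIP1-DT stood at 0.02 with tamoxifen, 0.17 with estradiol and 0.10 with vehicle. NEK2 is a kinase of centrosome separation, and NEK2-DT stood at -0.17 with tamoxifen, -0.47 with estradiol and -0.03 with vehicle, lowest with estradiol.

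Genes of membrane traffic made up another group. STX17 is a fusion protein of autophagosomes, and STX17-DT stood at 0.01 with tamoxifen, 0.09 with estradiol and -0.06 with vehicle. RAB30 is a GTPase of the Golgi, and its RAB30-DT probe set above the floor, 228612_at, stood at 0.06 with tamoxifen, 0.28 with estradiol and 0.09 with vehicle. ZDHHC12 attaches palmitate to proteins, and ZDHHC12-DT stood at -0.01 with tamoxifen, 0.003 with estradiol and -0.05 with vehicle. MARCHF10, a membrane-linked ubiquitin ligase gene, had a transcript at -0.01 with tamoxifen, 0.18 with estradiol and 0.19 with vehicle.

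Metabolic partners were more mixed. NDUFV1 is a subunit of respiratory complex I, and NDUFV1-DT stood at 0.08 with tamoxifen, -0.08 with estradiol and -0.01 with vehicle. MOCS2 takes part in making the molybdenum cofactor, and MOCS2-DT, in the brightest band, stood at -0.33 with tamoxifen, -0.50 with estradiol and -0.09 with vehicle, lowest with estradiol, while MOCS2 differed by 0.56 for tamoxifen minus vehicle. DPP3 is a dipeptidyl peptidase, and DPP3-DT stood at -0.02 with tamoxifen, 0.19 with estradiol and -0.04 with vehicle. GATD1-DT stood at -0.06 with tamoxifen, 0.05 with estradiol and -0.05 with vehicle. CFAP100 is a protein of cilia, and CFAP100-DT probe set 237272_at, in the brightest band, stood at 0.23 with tamoxifen, 0.15 with estradiol and -0.14 with vehicle, higher with both ligands than with vehicle.

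For the remaining transcripts no role of the partner is given here. The 3 OSER1-DT probe sets ran together: 1558906_a_at stood at 0.0014 with tamoxifen, 0.32 with estradiol and 0.0011 with vehicle, 1569746_s_at at -0.00092 with tamoxifen, 0.29 with estradiol and -0.02 with vehicle and 1569745_at at -0.38 with tamoxifen, -0.05 with estradiol and -0.30 with vehicle. All 3 were highest with estradiol. ANKRD13C-DT stood at 0.11 with tamoxifen, 0.45 with estradiol and 0.02 with vehicle, likewise highest with estradiol, beside ANKRD13C at 0.82 for tamoxifen minus vehicle. EOLA1-DT stood at 0.07 with tamoxifen, -0.04 with estradiol and 0.26 with vehicle and EOLA2-DT probe set 215057_at at -0.03 with tamoxifen, 0.02 with estradiol and 0.10 with vehicle. Both lie on the X chromosome and were highest with vehicle. APCDD1L-DT stood at 0.09 with tamoxifen, -0.16 with estradiol and -0.03 with vehicle and TMCC1-DT at -0.00074 with tamoxifen, 0.00074 with estradiol and 0.06 with vehicle, the second nearly flat. For tamoxifen minus vehicle APCDD1L differed by 0.79 and TMCC1 by -0.70, both past the rule in opposite directions. TMEM161B-DT probe set 235406_x_at stood at -0.09 with tamoxifen, -0.35 with estradiol and -0.12 with vehicle, and TMEM161B differed by -0.94 for tamoxifen minus vehicle. UBL7-DT stood at -0.52 with tamoxifen, -0.35 with estradiol and -0.21 with vehicle, lowest with tamoxifen, as was UBL7 at -0.89 with tamoxifen, -0.53 with estradiol and -0.24 with vehicle.

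Probe sets of 1 transcript did not always move alike. At least 2 probe sets above the floor were present for 11 transcripts. All probe sets of a transcript had the same sign in 6 of 11 for estradiol minus vehicle, in 8 for tamoxifen minus vehicle and in 5 for tamoxifen minus estradiol. The median range within a transcript was 0.37, 0.52 and 0.25 in that order. For tamoxifen minus estradiol GMDS-DT had the widest range, 1.70, and CNN3-DT the next, 1.03. OSER1-DT and MAP4K3-DT had the narrowest in that comparison, 0.04 and 0.05.

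Below the floor, 33 further probe sets passed 1.5-fold in at least 1 comparison and 173 did not. The share of all dim probe sets passing in at least 1 comparison was not counted, so 33 cannot be read as many or few. Shares without the floor, per comparison and beside those of all probe sets, are given above. At that brightness the array gives little signal. DPH5-DT probe set 232589_at stood at -0.12 with tamoxifen, 1.04 with estradiol and -0.04 with vehicle, high with estradiol only, and 235808_at at -0.49 with tamoxifen, 0.27 with estradiol and 0.01 with vehicle, so 3 DPH5-DT probe sets had their highest value with estradiol and their lowest with tamoxifen. CNN3-DT probe set 235362_at stood at -0.65 with tamoxifen, 0.25 with estradiol and 0.22 with vehicle, low with tamoxifen only, as in 235691_at. TNFRSF10A, a receptor for the death ligand TRAIL, had a transcript at 0.53 with tamoxifen, -0.58 with estradiol and 0.07 with vehicle, and TNFRSF10A itself differed by 0.01 for tamoxifen minus estradiol.

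Some of these dim transcripts were low with tamoxifen. PAPOLA is the poly(A) polymerase, and PAPOLA-DT stood at -0.70 with tamoxifen, -0.24 with estradiol and 0.11 with vehicle. TOLLIP damps Toll-like receptor signalling, and TOLLIP-DT stood at -0.54 with tamoxifen, 0.18 with estradiol and 0.26 with vehicle. STAM sorts ubiquitinated receptors, and STAM-DT stood at -0.38 with tamoxifen, -0.04 with estradiol and 0.28 with vehicle. Tamoxifen was the lowest array in each of them. GARS1-DT probe set 1563781_at stood at -0.80 with tamoxifen, -0.67 with estradiol and 0.01 with vehicle and 238540_at at -0.72 with tamoxifen, -0.41 with estradiol and -0.05 with vehicle. RAB30-DT probe set 228643_at stood at -0.33 with tamoxifen, -0.15 with estradiol and 0.49 with vehicle. SUCLG2-DT, beside a gene of the citric acid cycle, stood at -0.83 with tamoxifen, -0.74 with estradiol and -0.11 with vehicle in 1 of its 3 probe sets. These GARS1-DT, RAB30-DT and SUCLG2-DT probe sets were lower with both ligands than with vehicle. Averaged over the 2 probe sets in its brightest band, SUCLG2-DT differed by -0.36 for tamoxifen minus vehicle, inside the rule. CFAP100-DT probe set 237735_at stood at -0.48 with tamoxifen, 0.09 with estradiol and 0.11 with vehicle, PFKP-DT, beside a phosphofructokinase gene, at -0.50 with tamoxifen, 0.10 with estradiol and -0.04 with vehicle, and ZBTB44-DT at -0.46 with tamoxifen, 0.13 with estradiol and -0.07 with vehicle. All 3 were lowest with tamoxifen.

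Others were highest with estradiol. TLE1 is a corepressor, and TLE1-DT stood at -0.42 with tamoxifen, 0.49 with estradiol and -0.18 with vehicle. DNAJC3, a co-chaperone of the endoplasmic reticulum, had a transcript at -0.12 with tamoxifen, 0.68 with estradiol and 0.11 with vehicle in probe set 240574_at and at 0.58 with tamoxifen, 0.23 with estradiol and -0.08 with vehicle in 239119_at, which was highest with tamoxifen instead. MCPH1-DT stood at 0.04 with tamoxifen, 0.81 with estradiol and 0.10 with vehicle. MCPH1 acts in chromosome condensation and had no probe set under its symbol alone. FZD4 is a Wnt receptor, and FZD4-DT stood at 0.0048 with tamoxifen, 0.64 with estradiol and 0.21 with vehicle. MINDY2 is a deubiquitinase, and MINDY2-DT stood at 0.30 with tamoxifen, 0.69 with estradiol and 0.0018 with vehicle. PIK3IP1-DT stood at 0.40 with tamoxifen, 0.59 with estradiol and -0.04 with vehicle. All of these apart from the second DNAJC3-DT probe set were highest with estradiol. TMEM161B-DT probe set 241035_s_at stood at -0.0036 with tamoxifen, 0.44 with estradiol and -0.24 with vehicle, PRDM10-DT at -0.24 with tamoxifen, 0.39 with estradiol and 0.02 with vehicle and EPM2A-DT at -0.27 with tamoxifen, 0.37 with estradiol and 0.24 with vehicle. EPM2A encodes laforin, a phosphatase of glycogen. EDRF1-DT probe set 239483_at stood at 0.26 with tamoxifen, 0.32 with estradiol and -0.38 with vehicle, with vehicle the lowest. The other EDRF1-DT probe sets, 1560714_at, 1565805_at and 1565806_at, were dimmer and lay inside 1.5-fold. Vehicle was the lowest in none of them, and 1565805_at was lowest with estradiol, at -0.42.

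A last set was highest with tamoxifen or lowest with estradiol. AFDN links adherens junctions to actin, and AFDN-DT stood at 0.56 with tamoxifen, -0.21 with estradiol and 0.30 with vehicle. ICMT methylates prenylated proteins, and ICMT-DT stood at 0.19 with tamoxifen, -0.41 with estradiol and 0.04 with vehicle. RRS1, of ribosome assembly, had a transcript at 0.31 with tamoxifen, -0.32 with estradiol and -0.01 with vehicle. In these the estradiol array was the lowest. DDHD1-DT stood at 0.49 with tamoxifen, 0.19 with estradiol and -0.18 with vehicle and CIBAR1-DT probe set 1561423_at at 0.37 with tamoxifen, -0.04 with estradiol and -0.36 with vehicle, both highest with tamoxifen. The other CIBAR1-DT probe set, 238244_at, differed by only 0.03 for tamoxifen minus vehicle. FAM111A-DT stood at -0.32 with tamoxifen, -0.50 with estradiol and 0.18 with vehicle, RAB17-DT at -0.12 with tamoxifen, -0.72 with estradiol and -0.04 with vehicle and ZNF426-DT probe set 1556777_a_at at -0.08 with tamoxifen, -0.65 with estradiol and 0.05 with vehicle. These 3 were lowest with estradiol, and the ZNF426-DT probe set above the floor was highest with it.

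Machinery that acts on early transcript ends and on RNA decay, with the U1 snRNP included, was read from 4 lists. They were chosen by textbook role and had 49 genes above the floor. For estradiol minus vehicle 0 of 49 passed 1.5-fold in either direction, where 5.95% of all 12130 genes above the floor were higher and 2.78% lower. For tamoxifen minus vehicle 3 were higher (6.12%), where 6.99% of all genes were, and 1 was lower (2.04%), where 4.42% of all genes were. For tamoxifen minus estradiol 0 passed, where 1.61% and 2.26% of all genes did. These shares lay at or below the background.

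Of the nuclear exosome and its adaptors 19 genes lay above the floor, with medians of 0.02 for estradiol and 0.02 for tamoxifen, each minus vehicle, and 0.03 for the 2 ligands' difference, taken in this order below. C1D, a cofactor of the exosome, stood at 0.71 with tamoxifen, 0.43 with estradiol and 0.08 with vehicle, a tamoxifen difference of 0.63 from vehicle, or 0.54, inside the rule, with the vehicle values doubled. PABPN1, the nuclear poly(A)-binding protein, stood at -0.56 with tamoxifen, -0.46 with estradiol and -0.15 with vehicle, a difference of -0.42. TENT4B, a poly(A) polymerase that tags RNAs for the exosome, stood at -0.31 with tamoxifen, -0.66 with estradiol and -0.29 with vehicle, lowest with estradiol. MTREX, the helicase that feeds RNA to the exosome, and EXOSC9, a subunit of its core, differed by 0.36 and 0.35 for tamoxifen minus vehicle, and EXOSC9 passed the rule with vehicle doubled, at 0.59. Of Integrator all 14 listed genes lay above the floor, with medians of -0.02, 0.07 and -0.0005. INTS13 and INTS2 were higher with tamoxifen than with vehicle, at 0.70 and 0.62. INTS11, the subunit that cuts RNA, was -0.58, just inside the rule. INTS8 was 0.55 and passed with vehicle doubled, at 0.74. The largest difference for estradiol minus vehicle was 0.48 in INTS12, while INTS2 passed the rule there with vehicle doubled, at 0.66. For tamoxifen minus estradiol the largest was 0.33 in INTS6.

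All 10 listed U1 snRNP genes lay above the floor, with medians of -0.15, -0.12 and -0.01. SNRPA, which binds U1 RNA, stood at -0.99 with tamoxifen, -0.52 with estradiol and -0.13 with vehicle, lowest with tamoxifen, a difference of -0.85 from vehicle. The next largest for that comparison ran in both directions, with 0.34 in SNRPE, -0.33 in SNRNP70 and -0.32 in SNRPB, and the list had 4 genes above 0 and 6 below. Of the cap-binding complex and its partner ARS2 (SRRT) 6 genes lay above the floor, with medians of -0.11, -0.02 and 0.12. PHAX, an export adaptor for small nuclear RNAs, stood at 0.13 with tamoxifen, -0.37 with estradiol and 0.11 with vehicle, low with estradiol only, a difference of 0.50 for tamoxifen minus estradiol and of -0.48 for estradiol minus vehicle, or -0.60, past the rule, with vehicle doubled. For tamoxifen minus vehicle the largest of this list were -0.22 in ZC3H18 and 0.19 in NCBP1.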

How the data were processed

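RNA of 3 cultures was hybridised to 1 Affymetrix array each. The authors deposited log2 values (base taken from RMA, robust multi-array averaging, which the submitters' processing notes name with no version), centred per probe set on an unstated baseline. Direction, higher meaning more RNA, was assumed. Python 3.11.15, pandas 2.3.3 and numpy 2.4.6 read the values, matplotlib 3.10.9 drew them. Probe sets were named from the platform annotation (1801 with several symbols and 11777 without an entry were not named). The members and lists were chosen with earlier results of these data known. Brightness bands came from the finest binary step over the 3 columns, shifted by 1 for vehicle. Where no step matched a printed value, 1 unit of its last digit was allowed. On simulated levels, none of them under 2, the bands were right for most probe sets. All simulated 2-fold changes were called, although the noise set there was too small for many to be missed. The simulated vehicle column was a mean of arrays and the baseline was known, unlike in these data. The simulation therefore does not show how often bands or calls are right here. Differences are plain differences of columns, and probe sets past 1.5-fold were counted. With 1 array per group no test was run, and the number of arrays limits the precision. Values are given for every divergent probe set above the floor or past 1.5-fold, and machinery genes are named from among the 4 of each list with the largest absolute difference in a comparison. Promoter windows were taken from RefSeq, 250 bases before the start, and 51 pairs without both entries were not used there. Alternatives changed the floor, size rule, centring, probe set types, averaging and the scale of the vehicle values.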

Additional observations from a re-analysis of the deposited data

How the results depend on the processing

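Each comparison rests on 1 array per group, 2 of the 3 comparisons share the vehicle array, the baseline of the values is not stated, and dim probe sets carry little signal. No paired analysis was possible because each group has 1 array. Counts of divergent probe sets past 1.5-fold were, as higher then lower, 3 and 4 for estradiol minus vehicle, 2 and 11 for tamoxifen minus vehicle, and 3 and 6 for tamoxifen minus estradiol. Without the floor they were 10 and 11, 6 and 20, and 8 and 18 of 278. With a floor of 8 they were 0 and 0, 0 and 2, and 0 and 2 of 13. Of all probe sets at 8 or more, the shares in the same order were 5.9% and 4.19%, 7.08% and 5.43%, and 1.55% and 1.76%. With a 2-fold rule the divergent counts were 1 and 0, 0 and 1, and 1 and 2, and the share of all probe sets past 2-fold was not counted. Without probe set types that can cross-react the lower counts were 2 for estradiol and 7 for tamoxifen minus vehicle. With the vehicle values doubled, 5 were higher and 2 lower with estradiol, and 7 lower with tamoxifen. Pairs with the same sign numbered 23, 21 and 26 of 49 and, without the floor, 100, 83 and 86 of 182. Without cross-reacting partner probe sets they numbered 13 of 34 for tamoxifen minus estradiol. Machinery genes past 1.5-fold for estradiol minus vehicle were 0, but 1 higher and 1 lower with vehicle doubled and 1 lower when all probe sets were averaged. The other 34 counts stayed within 1.5 times the main count, centring included, and no difference of a divergent probe set past 1.5-fold changed sign. Which cause moved these counts was not tested.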
